A study of Mus musculus with 12 samples.

Results

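Long-term injury of the wild-type (WT) mouse liver by CCl4 was examined at the level of tRNA-derived small RNAs (tsRNAs), by setting livers of day 27 of repeated CCl4 injection (WT D27) against livers of mice that received the corn oil vehicle (WT D0). The members were every tRNA read of 14 to 40 nt in these 4 of the 12 libraries of the series, 2 libraries per group, with each distinct read sequence counted once. They made up 35847 of 87699 sequences. WT D27 mice were male, wild type, of the B6D2F1/Crl strain, 8 to 12 weeks old by the labels, and were injected repeatedly with 40% CCl4 in corn oil at 2 mL per kg. WT D0 mice shared strain, sex, age range and genotype and received no CCl4, and the sources used here do not say that they were given repeated oil or were held until day 27. Other groups were used only for contrast and for the spread in the fits. They were WT livers 3 days after a single injection (WT D3) and NSun2-/- livers (NS-KO) at D27, D3 and D0. By the labels these mice were also 8 to 12 weeks old. WT D3, NS-KO D3 and NS-KO D27 mice received 40% CCl4 at 2 mL per kg, and NS-KO D0 mice received no CCl4. NS-KO livers lack the methyltransferase that places 5-methylcytosine on many tRNAs. The libraries were made from whole liver, so fewer cells of a type and less RNA per cell cannot be told apart, and since only tRNA reads were tabulated, the tissue could not be checked against liver mRNA markers.

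tRNAs are cut in the anticodon loop by ribonucleases such as angiogenin under stress, which leaves a 5′ and a 3′ portion, and shorter pieces arise from cuts in the D and T arms or from the trailer that is removed when the precursor matures. Fragments of the 5′ portion have been linked to lower protein synthesis, and those that end with the CCA tail can be loaded into Argonaute proteins. In the subtypes used here, tRF-5a, tRF-5b and tRF-5c start at the 5′ end of the mature tRNA and are listed in order of length, tRF-3a and tRF-3b end at its 3′ end, tiRNA-5 and tiRNA-3 are the longer portions on either side of the anticodon, tRF-1 comes from the 3′ trailer of the precursor, tRF-2 is internal, and Other holds the rest.

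The 4 libraries differed in size, with 156602 and 275568 tRNA reads in WT D27 and 266322 and 161485 in WT D0. Each group thus held a smaller and a larger library. Levels are given as CPM, reads scaled to a fixed total of tRNA reads per library, so they are shares of the tRNA reads and not amounts per liver. A CPM of 20 was worth 4 to 6 reads. A count of 0 allows up to 3 reads, or 10.9 to 19.2 CPM in these libraries. That limit reflects counting error alone, because no molecular identifiers were used. The scaling factors of the fit to the sums were 0.810 and 0.509 in WT D27 and 0.509 and 0.731 in WT D0, so the replicates of each group differed from each other in composition.

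The fragments on which most of the results turn were 5′ pieces of tRNAs, above all of tRNA-Gly, that stop a few bases before the anticodon. The sequences below show tRNA-Gly cut at neighbouring bases, with the bases from position 28 onward in capitals so that the end of each fragment can be read off. Positions count from 1 at the 5′ end.

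tRF-5c Gly-CCC/Gly-GCC 30 nt: gcattggtggttcagtggtagaattctCGC
tRF-5c Gly-CCC/Gly-GCC 31 nt: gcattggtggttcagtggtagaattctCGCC
tRF-5c Gly-CCC/Gly-GCC 32 nt: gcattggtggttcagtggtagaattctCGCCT

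The 30-nt Gly fragment stood at 61845 and 41463 CPM in WT D27 and at 24853 and 24460 CPM in WT D0. The 31-nt fragment, 1 base longer, stood at 75989 and 98288 CPM in WT D27, against 166220 and 138205 CPM in WT D0. Neither pair of groups overlapped, and the 2 neighbouring ends of the same molecule lay on opposite sides of their D0 levels. The 32-nt fragment was at 9847 and 50717 CPM in WT D27, which spans the 21455 and 22256 CPM of WT D0. None of the single fragments passed the test that is described further on.

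The make-up of the libraries by subtype was much the same in both groups. tRF-5c was the most abundant subtype, with 60.9% and 69.6% of reads in WT D27 and 71.5% and 64.4% in WT D0. Other held 31.2% and 25.0% in WT D27 and 22.7% and 27.8% in WT D0, and tRF-1 held 2.69% and 1.12% in WT D27 and 1.66% and 2.26% in WT D0. Reads of mitochondrial tRNAs made up 16.7% and 8.74% in WT D27 and 10.8% and 14.0% in WT D0. In each of these 4 cases the ranges overlapped. Of 10 subtype totals tested with limma, 0 were higher and 0 lower after Benjamini-Hochberg adjustment, and 0 had an unadjusted p under 0.05, a share of 0% of all subtypes.

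What differed was the place where the 5′ fragments stopped. Reads that began at the 5′ end and ended before the anticodon loop made up 34.8% and 25.7% of all reads in WT D27, against 14.4% and 14.9% in WT D0. Reads that began there and ended within the loop made up 35.3% and 57.9% in WT D27, against 66.1% and 59.2% in WT D0. In both measures the groups did not overlap, although the second gap was narrow. WT D27 replicate 1 lay farther from the controls than replicate 2 in both.

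The read lengths gave the same shift in another form, since the length of a read that begins at the 5′ end sets where it stops. Reads of 27 to 30 nt took 29.1% and 20.1% of the library in WT D27 and 8.88% and 9.85% in WT D0. Reads of 31 nt, the most common length in all 4 libraries, took 30.2% and 38.5% in WT D27 and 56.7% and 48.6% in WT D0. Reads of 32 to 36 nt overlapped, with 13.4% and 26.3% in WT D27 and 15.9% and 17.8% in WT D0. Of 27 read lengths tested with limma, 4 were higher in WT D27 after Benjamini-Hochberg adjustment (14.8% of lengths) and 0 were lower.

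Those 4 lengths were contiguous. Reads of 28 nt were at 3.05% and 2.45% in WT D27 and at 0.537% and 0.744% in WT D0, a log2 fold change of 2.11 with an SE of 0.41 (limma, adjusted p = 1.7e-05). Reads of 29 nt were at 2.94% and 2.12% in WT D27 and at 0.523% and 0.756% in WT D0, a log2 fold change of 1.99 (limma, adjusted p = 3.3e-05). Reads of 30 nt rose by 1.23 on the log2 scale, with 21.6% and 14.6% in WT D27 and 7.43% and 7.76% in WT D0 (limma, adjusted p = 0.0202). Reads of 27 nt rose by 1.29, with 1.53% and 0.928% in WT D27 and 0.397% and 0.596% in WT D0 (limma, adjusted p = 0.0166). At 31 nt the log2 fold change was -0.62 and did not pass (limma, adjusted p = 0.693). The spread was pooled over lengths, and with the own spread of each length, or with TMM factors, only 29 nt passed (limma, adjusted p = 0.00595 and 0.0193). Only 28 and 29 nt passed without WT D27 replicate 1, without WT D0 replicate 1 and among the 6 WT libraries alone.

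**Figure D1:**
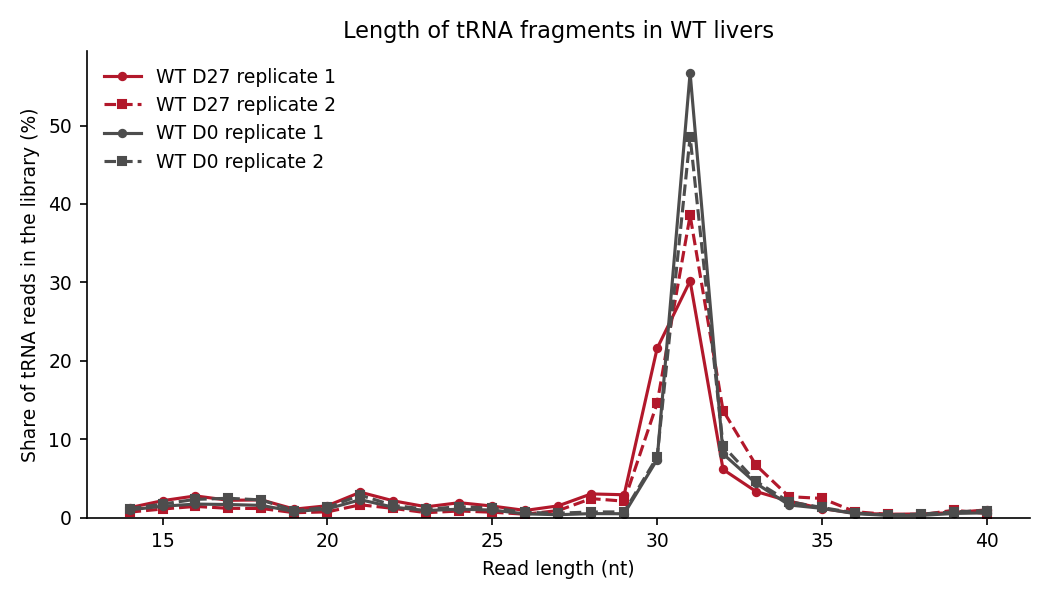
Share of tRNA reads (%) by read length (nt) in the 2 WT D27 and 2 WT D0 libraries, 1 line per library. Both WT D27 lines lie above both WT D0 lines from 27 to 30 nt and below them at 31 nt, where WT D0 reaches 56.7% and 48.6%.

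The added short reads came from the 5′ ends of nuclear tRNAs. Of the reads of 27 to 30 nt, 94.3% and 94.9% in WT D27 began at the 5′ end of a nuclear tRNA, against 89.1% and 86.3% in WT D0. Mitochondrial tRNAs gave 2.90% and 2.30% of these reads in WT D27 and 5.25% and 6.95% in WT D0. Among mitochondrial reads alone, 28-nt reads made up 1.19% and 1.26% in WT D27 and 1.13% and 1.19% in WT D0, and 30-nt reads made up 1.06% and 1.21% in WT D27 and 0.827% and 0.964% in WT D0. Among nuclear reads that did not begin at a 5′ end, 30-nt reads made up 1.68% in both WT D27 libraries and 1.58% and 1.52% in WT D0. Gaps in these reads were thus small beside those of the whole library.

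The ends were then read tRNA by tRNA. For 5′ reads of 27 to 36 nt whose first 26 bases matched a mature nuclear tRNA exactly, the last base was placed relative to the anticodon, where 1 is the first anticodon base and 0 the base before it. These reads were 61.8% and 75.6% of the library in WT D27 and 73.1% and 66.7% in WT D0. This measure was chosen after the length totals had been seen and is given without a test. In tRNA-Gly, the family with most reads, 50.7% and 55.9% of WT D27 fragments ended at base -1, against 82.0% and 78.1% in WT D0. One base earlier, at -2, the shares were 36% and 20.5% in WT D27 and 10.5% and 12.1% in WT D0. Ends at -4 made up 4.49% and 2.92% in WT D27 and 0.370% and 0.553% in WT D0.

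tRNA-Glu-CTC showed the same direction with a wider spread of ends. Its fragments ended at -3 for 32.4% and 15.1% of reads in WT D27 and for 5.34% and 6.85% in WT D0. Ends at -2, the most common position in all 4 libraries, took 38.0% and 35.0% in WT D27 and 50.3% and 49.1% in WT D0. Ends at 0, next to the anticodon, took 9.38% and 25.9% in WT D27 and 26.4% and 25.2% in WT D0, so replicate 2 of WT D27 stood with the controls there.

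Counted as ends at least 4 bases before the anticodon, 5 of 7 families were higher in WT D27 without overlap (71.4%) and 0 were lower. The share was 8.42% and 5.40% for Gly in WT D27, against 0.749% and 1.19% in WT D0. It was 44.2% and 22.2% for Glu-CTC in WT D27, against 6.55% and 8.87% in WT D0. For Val it was 8.14% and 2.45% in WT D27, against 0.784% and 0.839% in WT D0. For Lys it was 9.08% and 4.31% in WT D27, against 2.27% and 1.77% in WT D0, and for His-GTG 32.4% and 14.9% in WT D27, against 6.72% and 13.3% in WT D0. WT D27 replicate 1 was the higher of its group in all 5. Glu-TTC overlapped, with 14.9% and 9.82% in WT D27 and 7.11% and 9.96% in WT D0. No Tyr-GTA fragment ended that early in any of the 4 libraries (78 to 167 reads per library). Tyr-GTA fragments, however, had a mean end of 3.10 to 3.22 at a mean length of 31.1 to 31.3 nt. Reads under 27 nt were left out, so such an early end was mostly out of reach for Tyr-GTA. Its place among the 7 families is thus no observation of an unmoved end.

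**Figure D2:**
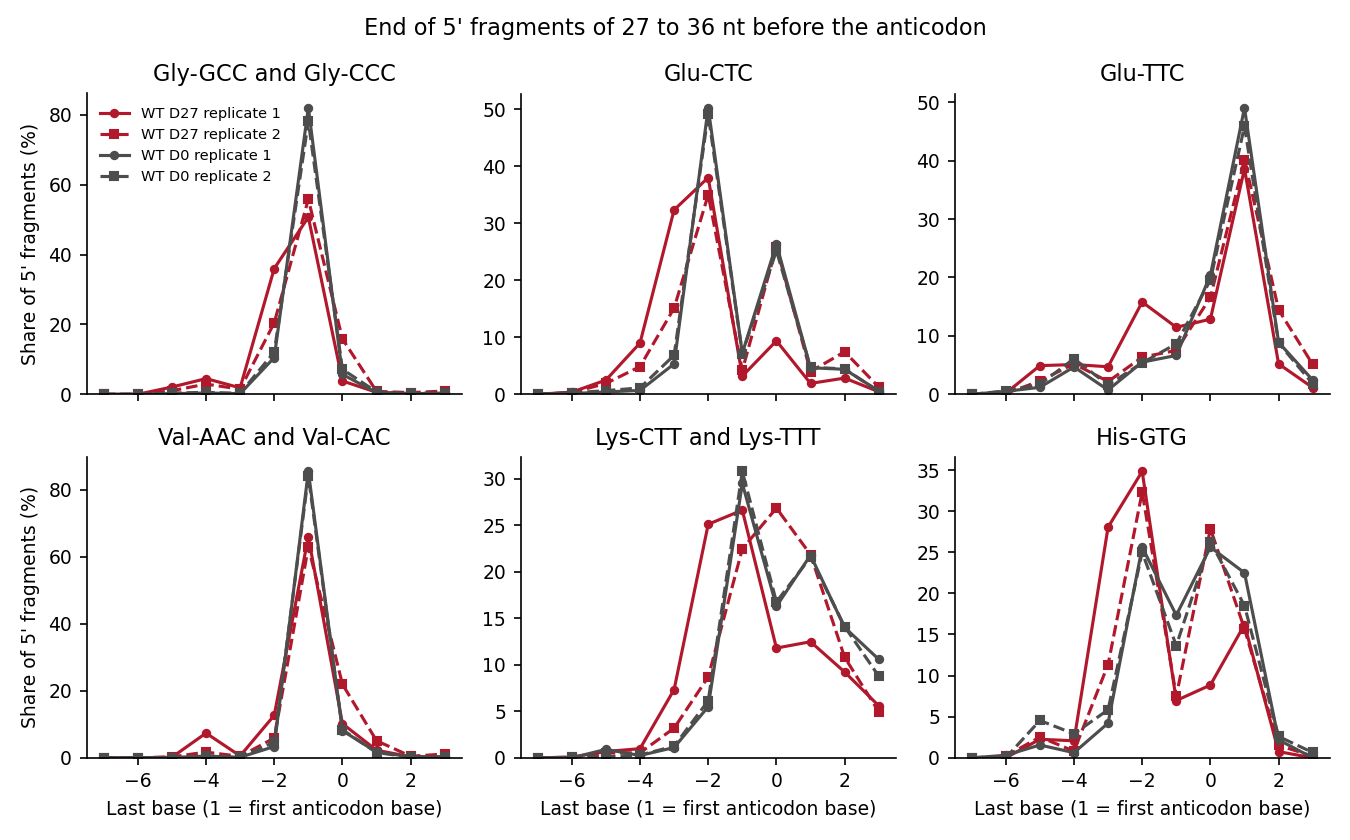
Share of 5′ fragments (%) that end at each base, counted so that 1 is the first anticodon base, for 6 tRNA families in the 2 WT D27 and 2 WT D0 libraries. In the Gly, Glu-CTC, Val, Lys and His-GTG panels the WT D27 lines are higher on the left of the main peak, and in the Gly panel they are lower at the main peak itself.

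The mean end moved toward the 5′ side without overlap in 4 of the 7 families (57.1%) and toward the 3′ side in 0. For Gly it was at -1.55 and -1.13 in WT D27 and at -1.04 in both WT D0 libraries. For Val it was at -1.20 and -0.750 in WT D27 and at -0.925 and -0.941 in WT D0, which overlapped. In this family WT D27 replicate 2 also held more fragments on the 3′ side, with 22.0% ending at 0, against 10.2% in WT D27 replicate 1 and 8.11% and 8.39% in WT D0. In Gly and Val the second D27 library thus had both shorter and longer fragments than the controls, while the first had mainly shorter ones. With a last base that does not match the tRNA left out of the measure, 4 of 7 families again had an earlier mean end without overlap and 0 a later one.

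Such a last base was common in these libraries. For Gly, 51.5% and 53.8% of the fragments in WT D27 ended on a base that differs from the tRNA, against 59.4% and 59.1% in WT D0. For Val the shares were 54.5% and 54.2% in WT D27 and 59.2% and 60.9% in WT D0. For Glu-CTC they were 38.9% and 37.6% in WT D27 and 38.1% and 39.5% in WT D0, which overlapped. The 31-nt Gly fragment that ends in T was at least as abundant as the one that ends in the encoded C, with 76512 and 113449 CPM in WT D27 and 200704 and 164740 CPM in WT D0.

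The 5′ fragments also differed in which gene copies they came from. Mouse tRNAs are encoded by many genes, and copies that read the same codon can differ at a few bases of the 5′ portion, so a fragment can be given to a copy or to a group of copies. Reads of at least 29 nt whose first 28 bases matched exactly were used, and copies that share those bases were put in 1 group. The fragments below show the copies concerned, with the bases that set them apart in capitals. All positions are again counted from 1 at the 5′ end, and each token gives first the base of the copy compared with, Gly-GCC-2 or Val-AAC-1.

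Gly-GCC-2, 31 nt, last base C to T: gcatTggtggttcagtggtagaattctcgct
Gly-GCC-1, 31 nt, last base C to T: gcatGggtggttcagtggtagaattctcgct
Val-AAC-2, 32 nt: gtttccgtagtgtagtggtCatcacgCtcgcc
Val-CAC-1, 32 nt, last base C to T: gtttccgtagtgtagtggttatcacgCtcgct
Val-AAC-4, 33 nt: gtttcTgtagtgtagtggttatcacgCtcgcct

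In tRNA-Gly, the copies Gly-GCC-1 and Gly-GCC-6, which carry T5G, gave 11.5% and 10.2% of the Gly 5′ fragments in WT D27 and 4.02% and 4.29% in WT D0. Gly-CCC-2, with G9A and G15A, gave 0.859% and 0.767% in WT D27 and 0.151% and 0.175% in WT D0. The main copies Gly-GCC-2, Gly-GCC-3, Gly-GCC-4 and Gly-CCC-5, which are identical over this stretch, gave 87.2% and 88.5% in WT D27 and 95.4% and 95.0% in WT D0. Among 31-nt reads alone the Gly-GCC-1 and Gly-GCC-6 share was 11.4% and 11.1% in WT D27 and 4.10% and 4.17% in WT D0. In CPM these 2 copies stood at 45108 and 53083 in WT D27 and at 23070 and 21612 in WT D0.

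In tRNA-Val the minor copies differed more. The group of Val-AAC-2, Val-AAC-3 and Val-CAC-3, which carry T20C and T27C, gave 7.54% and 6.43% of the Val 5′ fragments in WT D27 and 1.25% and 1.37% in WT D0. Val-CAC-1, with T27C alone, gave 5.16% and 4.41% in WT D27 and 0.874% and 0.916% in WT D0. Val-AAC-4, with C6T and T27C, gave 3.86% and 4.26% in WT D27 and 0.487% and 0.733% in WT D0. In reads, these shares rested on 203 to 657 reads per copy group in WT D27 and on 39 to 100 in WT D0. Val-AAC-5 overlapped in this share, with 2.80% and 2.61% in WT D27 and 2.77% and 2.73% in WT D0. In CPM it was higher by a narrow gap, at 939 and 969 in WT D27 and 834 and 923 in WT D0. Among 32-nt reads its share was also narrowly higher, with 2.91% and 2.83% in WT D27 and 2.75% and 2.70% in WT D0. The main group of Val-AAC-1 and Val-CAC-2 stood at 26864 and 30305 CPM in WT D27 and at 28252 and 31650 CPM in WT D0, which overlapped, while the Val-AAC-2 group stood at 2529 and 2384 CPM in WT D27 and at 376 and 464 CPM in WT D0.

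The 3 Val groups that were higher have their genes in 1 stretch of chromosome 13 in GRCm38, the build in which 370 of the 439 nuclear precursors of the table lie exactly on an annotated tRNA gene. The 2 genes of Val-AAC-2 are at chr13:23285401-23285473 and chr13:23413248-23413320, and Val-AAC-3 is at chr13:23401073-23401145. Val-AAC-4 is at chr13:23298781-23298853, Val-CAC-3 at chr13:23300122-23300194 and Val-CAC-1 at chr13:23307629-23307701. Each lies exactly on a tRNA gene of the RefSeq annotation. Val-AAC-5, whose share of all Val fragments overlapped between groups, is on the same chromosome but outside the stretch, at chr13:22015791-22015863. Of the main group, Val-AAC-1 is on chromosomes 3 and 11, and 1 of the 5 genes of Val-CAC-2 lies beside the stretch, at chr13:23446142-23446214. The single gene of Gly-GCC-1 is at chr1:171066631-171066701.

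Over all 17 copy groups of Gly, Glu, Lys and Val, 7 were higher in WT D27 without overlap (41.2%) and 3 were lower (17.6%). The shares of an amino acid add up to 100, and the 3 that were lower were the most abundant copies of Gly, Val and Glu. In Glu, Glu-TTC-1 gave 10.02% and 7.69% in WT D27 and 4.64% and 7.54% in WT D0, a gap smaller than the spread between replicates. The 2 copy groups of Lys overlapped, with Lys-TTT-1 at 4.86% and 4.44% in WT D27 and at 4.79% and 4.20% in WT D0. These copy groups were chosen after their values had been seen and were not tested.

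**Figure D3:**
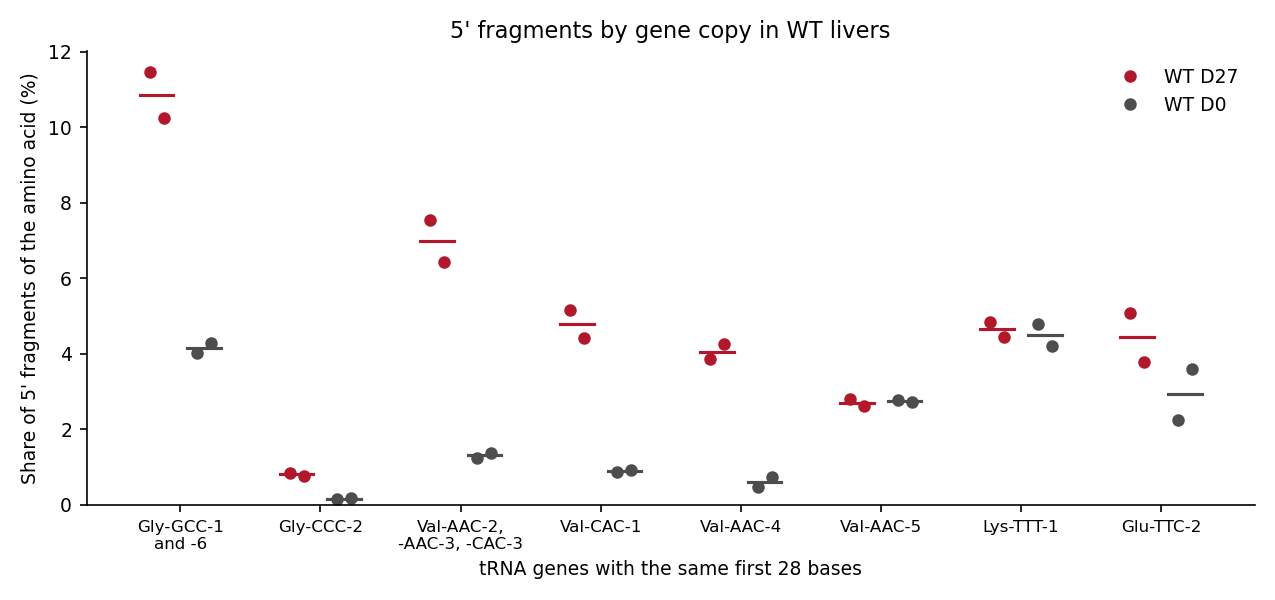
Share (%) of the 5′ fragments of an amino acid that came from 8 groups of tRNA gene copies, with 1 point per library and a short line at the mean of each pair, WT D27 to the left of WT D0. The Gly-GCC-1 and Gly-GCC-6 group and the first 3 Val groups stand clear of WT D0, while Val-AAC-5 and Lys-TTT-1 overlap.

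In WT D3 livers the Gly and Val groups named as higher lay between WT D27 and WT D0, but Glu-TTC-1, at 19.5% and 10.3% in WT D3, lay above both. Gly-GCC-1 and Gly-GCC-6 gave 6.56% and 5.96% of Gly fragments at D3, and the Val-AAC-2 group gave 4.96% and 3.77% of Val fragments. In NS-KO livers the shares were 6.02% and 4.40% for the Val-AAC-2 group in NS-KO D27 and 1.39% and 2.16% in NS-KO D0. For Gly-GCC-1 and Gly-GCC-6 the shares were 10.9% and 9.92% in NS-KO D27 and 8.22% and 7.36% in NS-KO D0. NS-KO D3 livers had the highest shares of both, at 23.4% and 25.3% for Gly-GCC-1 and Gly-GCC-6 and at 11.6% and 13.1% for the Val-AAC-2 group, so the order of the days in NS-KO was not that of WT.

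Reads were also summed by subtype and isodecoder, that is by tRNAs with the same anticodon, and 263 sums were tested with limma over all 12 libraries. After Benjamini-Hochberg adjustment 0 sums were higher (0%) and 0 lower (0%), the smallest adjusted p being 0.158. At an unadjusted p under 0.05, 15 were higher (5.70%) and 14 lower (5.32%), and limma with voom weights also called 0. Without overlap between the groups, 53 sums were higher (20.2%) and 31 lower (11.8%). Scaled by library size only, 3 sums passed, all higher. The median log2 fold change over all sums was -0.10, or -0.02 with library size only.

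The 10 higher sums with the smallest p, among those with a mean CPM of at least 100, were 4 of tRF-5c, 4 of tRF-3b and 2 of Other. tRF-5c of Glu-TTC was at 10856 and 5011 CPM in WT D27 and at 1697 and 3338 CPM in WT D0, a log2 fold change of 1.55 with an SE of 0.38 (limma, adjusted p = 0.158). tRF-5c of Val-CAC was at 1737 and 1459 CPM in WT D27 and at 454 and 502 CPM in WT D0, a log2 fold change of 1.64 (limma, adjusted p = 0.17). tRF-5c of Gln-CTG had 594 and 142 CPM in WT D27 and 7.51 and 49.5 CPM in WT D0, and the lowest of these is under the 11.3 CPM that 3 reads are worth in that library. With library size only it was 1 of the 3 sums that passed, at a log2 fold change of 3.05 (limma, adjusted p = 0.00292). Another was the joint class of tRF-5c Ala-CGC/Glu-CTC, at 13493 and 7911 CPM in WT D27 and 2163 and 2384 CPM in WT D0 (limma, adjusted p = 0.00486 with library size only, 0.245 otherwise). The third was Other Val-AAC, which holds the 33-nt fragment of Val-AAC-4 shown above, at 549 and 980 CPM in WT D27 and 124 and 192 CPM in WT D0 (limma, adjusted p = 0.0436 with library size only, 0.158 otherwise).

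The most abundant sums showed smaller differences. tRF-5c of the joint class Gly-CCC/Gly-GCC was at 383744 and 496415 CPM in WT D27 and at 582137 and 507979 CPM in WT D0, a log2 fold change of -0.39 (limma, adjusted p = 0.853). tRF-5c reads given to Gly-GCC alone, among them those of Gly-GCC-1, were at 55121 and 61894 CPM in WT D27 and at 26134 and 24374 CPM in WT D0, a log2 fold change of 1.14 (limma, adjusted p = 0.499). tRF-5c of Glu-CTC was at 99756 and 85456 CPM in WT D27 and at 67933 and 65498 CPM in WT D0, a log2 fold change of 0.40 (limma, adjusted p = 0.866). Reads of the mitochondrial Val tRNA and its precursor outside the named subtypes, listed as Other mt-Val-TAC, overlapped. They were at 77055 and 33709 CPM in WT D27 and 51164 and 62836 CPM in WT D0.

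Nuclear tRF-5c sums were mostly above 0. Of 22 such sums, 19 had a log2 fold change above 0, against 44.5% of all sums, with a median of 0.88, and 16 were higher without overlap, against 20.2% of all sums. At an unadjusted p under 0.05, 5 were higher, against 5.70% of all sums, and 0 lower, and none passed after adjustment. The 5′ fragments of Val-AAC and Val-CAC (9 sums) had a median of 0.82, those of Glu-CTC and Glu-TTC (9 sums) 0.29, those of His-GTG (2 sums) 0.60, those of Asp-GTC (3 sums) 0.18, those of Lys (6 sums) -0.01 (0.06 with library size only) and those of Gly-GCC and Gly-CCC (8 sums) -0.10. tRNAs that the methyltransferase DNMT2 modifies (29 sums of Asp-GTC, Gly-GCC and Val-AAC) had a median of -0.03, which turned to 0.04 with library size only.

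**Figure D4:**
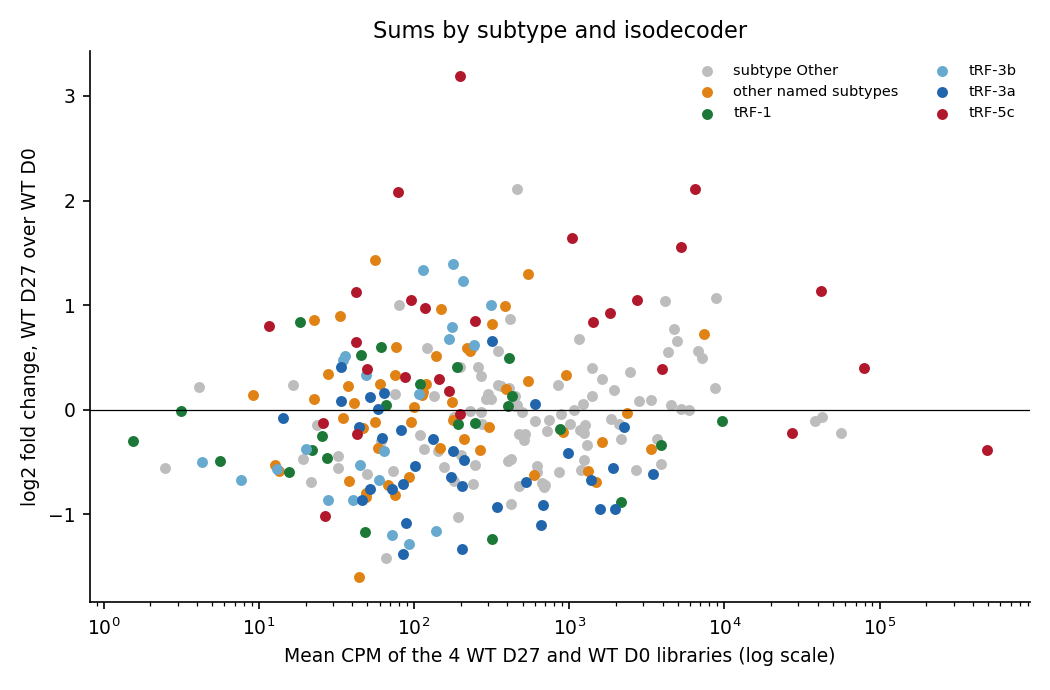
Log2 fold change of WT D27 over WT D0 against mean CPM of the 4 libraries (log scale) for 263 sums by subtype and isodecoder, coloured by subtype. Most tRF-5c points lie above 0 and most tRF-3a points below it, and no sum passed after adjustment.

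The 3′ fragments differed in the ratio of their longer to their shorter forms. Fragments tRF-3a (17 to 18 nt) and tRF-3b (19 to 22 nt) both end with the CCA tail and start at neighbouring places in the T arm. Of nuclear tRNAs, and not scaled to library size, WT D27 held 3296 and 2838 reads of tRF-3a and WT D0 4475 and 4293. Reads of tRF-3b numbered 628 and 450 in WT D27 and 396 and 351 in WT D0. Per 100 reads of tRF-3a there were therefore 19.1 and 15.9 reads of tRF-3b in WT D27 and 8.85 and 8.18 in WT D0, which do not overlap. This ratio is independent of the total of the library, was chosen after the sums had been seen, and was not tested. The unscaled reads do not give the level of either subtype, since the libraries differed in size. Scaled by library total, the tRF-3a and tRF-3b totals had log2 fold changes of -0.53 and 0.43 and did not pass (limma, adjusted p = 0.951 each).

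In all 4 libraries, 6 isodecoder classes had at least 10 reads of both kinds, a low minimum, so a ratio can rest on few reads. Of these 6, 5 had a higher ratio in WT D27 without overlap (83.3%) and 1 a lower one (16.7%). For Leu-CAA/Leu-CAG there were 23.6 and 16.8 per 100 in WT D27 and 6.30 and 5.21 in WT D0. For Ala-AGC there were 69.2 and 60.7 per 100 in WT D27 and 35.7 and 37.5 in WT D0. For Tyr-GTA there were 12.0 and 9.33 in WT D27 and 5.72 and 3.38 in WT D0. For Gly-CCC/Gly-GCC there were 209 and 144 in WT D27 and 100 and 72.7 in WT D0, the highest of the 6. The exception was Gln-CTG, with 6.18 and 4.49 in WT D27 and 10.5 and 7.11 in WT D0. In WT D3 livers the ratio over all nuclear tRNAs was 11.5 and 13.4. In NS-KO livers it was 32.7 and 33.6 in NS-KO D27 and 21.3 and 20.9 in NS-KO D0.

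**Figure D5:**
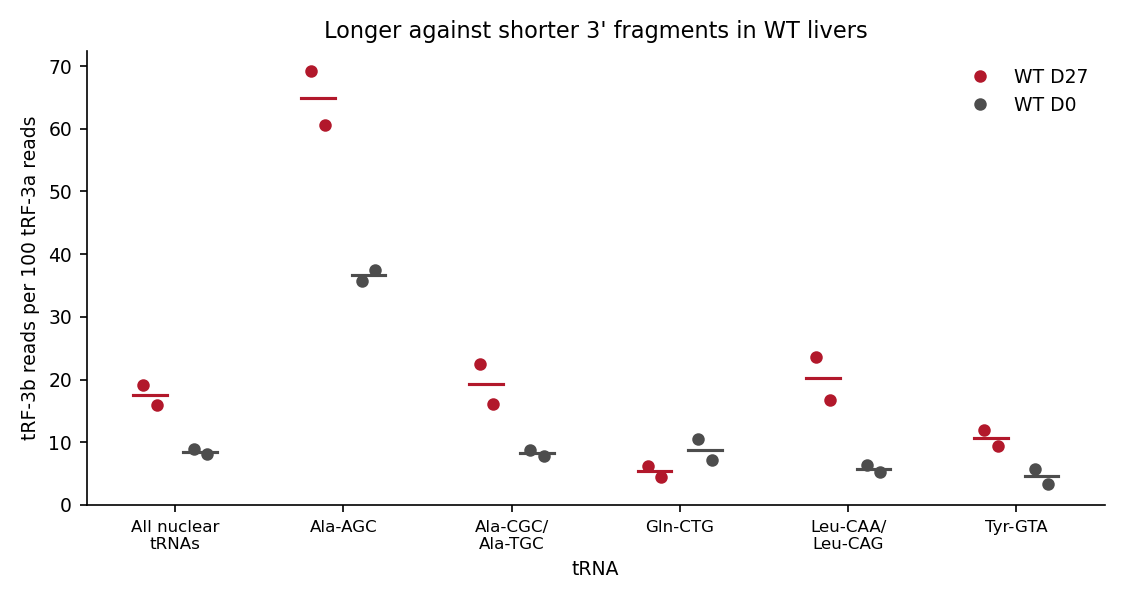
Reads of tRF-3b per 100 reads of tRF-3a for all nuclear tRNAs and for 5 isodecoder classes, with 1 point per library and a short line at the mean of each pair, WT D27 to the left of WT D0. The 2 WT D27 points lie above the 2 WT D0 points in all of these but Gln-CTG.

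Among the sums, tRF-3a was mostly below 0, with 26 of 33 nuclear sums below 0 (55.5% of all sums were), a median of -0.56 and 7 lower at an unadjusted p under 0.05, against 5.32% of all sums. A fragment of this kind is the 17-nt tRF-3a of Tyr-GTA, shown for the CCA tail that marks the end of a mature tRNA, with its last base in capitals.

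tRF-3a Tyr-GTA 17 nt: tccggctcgaaggaccA

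It was at 1143 and 617 CPM in WT D27 and at 1063 and 2229 CPM in WT D0, which overlapped. The tRF-3a sum with the smallest p was that of Thr-TGT, at 524 and 341 CPM in WT D27 and 740 and 1034 CPM in WT D0, a log2 fold change of -1.10 with an SE of 0.29 (limma, adjusted p = 0.158). tRF-3a shared by Gly-ACC, Val-AAC and Val-CAC was at 1801 and 987 CPM in WT D27 and 1922 and 3146 CPM in WT D0, a log2 fold change of -0.95 (limma, adjusted p = 0.196). The 19 nuclear tRF-3b sums had a median of 0.33, with 6 higher and 5 lower without overlap, against 20.2% and 11.8% of all sums. tRF-3b of Gly-TCC was at 236 and 109 CPM in WT D27 and at 52.6 and 55.7 CPM in WT D0, a log2 fold change of 1.34 (limma, adjusted p = 0.17, and 0.0462 with perfect matches only).

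Trailer fragments did not separate the groups. Of 22 nuclear tRF-1 sums, 7 were above 0 and 15 below, against 44.5% and 55.5% of all sums, with a median of -0.16. Without overlap, 1 was higher and 1 lower, against 20.2% and 11.8% of all sums. tRF-1 of Met-CAT, the most abundant, was at 13665 and 6107 CPM in WT D27 and at 8396 and 10459 CPM in WT D0. tRF-1 of Asn-GTT was the one lower without overlap, at 306 and 105 CPM in WT D27 and 345 and 508 CPM in WT D0 (limma, log2 fold change -1.24, adjusted p = 0.277). The tRF-1s of the 9 isodecoders that the study treated in detail had a median of -0.11, and 0 passed. That list was chosen by the study on these samples and is no independent evidence of a direction.

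Mitochondrial tRNA fragments come from 2 long transcripts of the mitochondrial genome. The 33 sums from the heavy-strand transcript had a median of -0.13 and the 18 from the light-strand transcript a median of 0.31, and 0 of either passed. Without overlap, 3 heavy-strand sums were higher and 6 lower. Of the light-strand sums, 5 were higher and 2 lower, against 20.2% and 11.8% of all sums. Fragments of mt-His-GTG took 5.34% and 5.58% of mitochondrial reads in WT D27 and 3.28% and 3.69% in WT D0. Within this tRNA, Other mt-His-GTG was at 7426 and 3988 CPM in WT D27 and at 2148 and 2954 CPM in WT D0 (limma, log2 fold change 1.03, adjusted p = 0.274). Its 3′ portion, tiRNA-3 mt-His-GTG, was at 1456 and 878 CPM in WT D27 and at 1382 and 2211 CPM in WT D0 (limma, log2 fold change -0.70, adjusted p = 0.374).

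Summed over subtypes, 101 isodecoder classes were tested and 0 were higher (0%) or lower (0%) after adjustment with limma, while 6 were higher and 5 lower at an unadjusted p under 0.05. The smallest p was that of His-ATG, with a log2 fold change of -1.42 (limma, adjusted p = 0.168), and the next that of Ala-CGC/Glu-CTC, with 1.97 (limma, adjusted p = 0.276). The other higher classes were Val-AAC (1.12), Pro-CGG (0.98), Val-CAC (0.90), Glu-TTC (0.88) and Arg-CCT (0.65), and the other lower ones Thr-TGT (-0.87), Thr-CGT (-0.85), Asn-GTT (-0.75) and Gly-ACC/Val-AAC/Val-CAC (-0.75), each with an adjusted p of 0.376 in limma.

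Of 22065 single fragments, 0 were higher (0%) or lower (0%) after adjustment with limma, while 571 were higher and 297 lower at an unadjusted p under 0.05, together 3.93%. limma with voom weights called 106 higher and 17 lower. Of those 106, 84 began at the 5′ end of a nuclear tRNA (79.2%), and 66 were such fragments of 27 to 30 nt (62.3%). Among all 22065, these kinds made up 14.2% and 2.82%, but that background includes many fragments with few reads. Of the 17 lower ones, 3 began at such an end and 0 were of that length. These counts describe the calls with voom weights only. Both kinds were more common among the 547 fragments with at least 100 CPM in both libraries of a group, at 301 and 75 fragments. Of these 547, 68 were higher at an unadjusted p under 0.05 in limma without voom weights. Of those 68, 62 began at such an end and 45 were also of 27 to 30 nt. Another 11 were lower, with 4 and 0 of these kinds. A fragment could enter the 547 through only the group in which it was high. These counts thus restate the shift in length and are no separate evidence of it.

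Among the higher fragments with the smallest p were some that ended early and some from the chromosome 13 Val genes. The 30-nt tRF-5c of His-GTG that ends in T was at 351 and 134 CPM in WT D27 and at 15.0 and 18.6 CPM in WT D0, a log2 fold change of 3.01 with an SE of 0.54 (limma, adjusted p = 0.174). The 29-nt tRF-5c of Val-AAC/Val-CAC that ends in T was at 396 and 152 CPM in WT D27 and at 11.3 and 18.6 CPM in WT D0, a log2 fold change of 3.31 (limma, adjusted p = 0.404). The 32-nt fragment of Val-AAC-2 shown above was at 492 and 562 CPM in WT D27 and at 86.4 and 112 CPM in WT D0, a log2 fold change of 2.24 (limma, adjusted p = 0.578). The last of these had close replicates, while the first 2 were higher in replicate 1 of WT D27.

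The number of distinct tsRNAs at a CPM of at least 20 overlapped, with 2472 and 2070 in WT D27 and 1844 and 2127 in WT D0. By subtype, tRF-5c was higher without overlap, with 644 and 673 in WT D27 and 476 and 471 in WT D0, and likewise at minimums of 10, 50 and 100 CPM. Most of these tRF-5c sequences carried a mismatch. With perfect matches only there were 112 and 113 in WT D27 and 77 and 95 in WT D0. tiRNA-5, with 69 and 80 in WT D27 and 46 and 58 in WT D0, did not overlap at 20 CPM but did at 10 CPM and at 100 CPM. With 2 libraries in each group, an exact permutation test of a single value such as this cannot give a two-sided p below 0.33.

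Set against a single injection, repeated injection gave 0 sums that were higher (0%) or lower (0%) in WT D27 than in WT D3 after adjustment with limma, with 17 higher and 25 lower at an unadjusted p under 0.05 (16.0% together). Of the 27 length totals, 8 differed from WT D3 (29.6%), with 2 higher (7.41%) and 6 lower (22.2%) in limma after adjustment, and with TMM factors 0 did. WT D3 replicate 1 was the shallowest WT library, with 81515 reads, against 193377 in replicate 2. Reads of 27 to 30 nt took 8.47% and 15.3% in WT D3, so replicate 2 lay between the WT D27 and WT D0 ranges and replicate 1 below both. Within this band, WT D3 against WT D0 gave log2 fold changes of 1.11 at 28 nt and 1.10 at 29 nt (limma, adjusted p = 0.0519 each). At 30 nt it gave 0.01. WT D27 against WT D3 did not pass at 29 nt (limma, adjusted p = 0.0902). For Gly, ends at least 4 bases before the anticodon took 1.21% and 5.20% in WT D3, and for Glu-CTC 12.9% and 22.8%. In NS-KO livers, reads of 27 to 30 nt took 10.5% and 7.92% at D27 and 7.06% and 6.27% at D0. The matched 5′ reads were only 28.7% and 19.9% of the library in NS-KO D27 and 20.4% and 17.7% in NS-KO D0. Within families, early ends were not particular to WT D27. Ends at least 4 bases before the anticodon took 4.22% and 7.21% for Gly and 20.6% and 22.6% for Glu-CTC in NS-KO D0. For Lys they took 1.86% and 1.55% there. At 1 of 27 lengths, 28 nt, the change between D0 and D27 differed between WT and NS-KO (3.70%; limma, adjusted p = 0.0292), a call that was lost with TMM factors (adjusted p = 0.549). Of 263 sums, 0 differed between the genotypes in their change over this time after adjustment with limma, and 19 did at an unadjusted p under 0.05 (7.22%).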

How the data were processed

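tsRNA-seq libraries were made from liver RNA of 14 to 40 nt after a pretreatment that removes charged amino acids, end groups and methyl groups. The authors used FastQC, trimmed adapters with cutadapt and aligned reads with Bowtie, allowing 1 mismatch, to mature and then precursor tRNAs; versions and the genome build are not given in the sources used here. The deposited table lists whole-number reads for each sequence and library under every tRNA matched, and replicates were not pooled. A check of units did not accept the table as raw counts because of its text lines, so log2 CPM was tested with limma (version 3.58.1, R 4.3.3) in place of count models, which were not run.

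A sequence listed under several tRNAs entered 1 time only. Sums and isodecoder totals entered with at least 10 reads in at least 2 of 12 libraries, and fragments where 1 library or more reached a CPM of 20. The fit used all 12 libraries, 1 mean per group (6 residual degrees of freedom), a prior count of 2 reads, TMM factors computed on the fragments, and Benjamini-Hochberg adjustment at 0.05. Subtype and length totals were scaled by library total. The methods give 2 independent biological replicates per group. Members and lists were chosen with earlier results of these data known. Named sums were the most abundant, those with the smallest p in each direction and the top members of each list, and other items were named after their values were seen. Reads with several possible isodecoders formed joint classes. The steps were tested on simulated data. Replicate numbers were taken to pair nothing, since only 5 of 15 pairs of groups had correlated deviations above 0.1 (-0.292 to 0.543). Alternatives were other scaling, prior counts, voom weights, fewer libraries, perfect matches, a replicate block and leaving out each library. Python 3.11.15, numpy 2.4.6, pandas 2.3.3 and matplotlib 3.10.9 were used. Some single fragments are not reported here.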

Additional observations from a re-analysis of the deposited data

Results flagged for a closer look

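Length totals differed between WT D27 and WT D3 for 8 of 27 lengths (29.6%), contrasts that were added after the length totals had been seen. Reads of 14 nt (log2 fold change -1.22), 15 nt (-1.08), 16 nt (-1.07), 17 nt (-1.07), 18 nt (-1.09) and 19 nt (-1.11) were lower in WT D27 (22.2% of lengths; limma, adjusted p = 0.037 each). Reads of 28 nt (1.00; limma, adjusted p = 0.0497) and 30 nt (1.22; limma, adjusted p = 0.037) were higher (7.41%). Reads of 14 to 19 nt took 11.9% and 6.36% in WT D27 and 28.4% and 12.2% in WT D3, where replicate 1, the higher value, is the shallow library, and its part in the difference was not tested. With the own spread of each length none of these 8 passed (adjusted p from 0.227 to 0.233). With TMM factors none passed either, and the log2 fold changes at 14 to 19 nt were -0.5476 to -0.3968 (limma, adjusted p from 0.255 to 0.363). Without WT D27 replicate 2 those 6 were -0.8066 to -0.5954 and none of the 8 passed.

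The change between D0 and D27 at 28 nt was larger in WT than in NS-KO by 1.92 on the log2 scale (limma, adjusted p = 0.0292, 1 of 27 lengths, 3.70%). It did not pass without WT D0 replicate 1 (1.68, adjusted p = 0.398), without WT D0 replicate 2 (2.15, adjusted p = 0.0526), without WT D27 replicate 1 (1.76, adjusted p = 0.184), with TMM factors (1.97, adjusted p = 0.549) or with the own spread of each length (adjusted p = 0.497).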

How the results depend on the processing

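No sum, isodecoder total or single fragment passed in WT D27 against WT D0, and this held under most alternatives. With library size only, 3 sums and 1 isodecoder class passed, with the 4 libraries alone 1 sum, 2 isodecoder classes and 63 fragments, with perfect matches only 1 sum, with reads listed under 1 isodecoder only (added after seeing the data) 1 class, and with voom weights 123 fragments. Of 27 lengths, 4 passed, against 1 with TMM factors, 2 with the 6 WT libraries, 1 with the own spread of each length (added after seeing the data) and 2 to 4 with 1 library left out. Against WT D3, library size only gave 5 sums. With reads outside tRF-5c as the total, the tRF-3a share differed by -2.361 and the tiRNA-5 share by 1.097 percentage points, D27 minus D0 (-0.6207 and 0.4643 of all reads). The causes were not tested.

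With the replicate number as a block, 0 sums, 0 isodecoder classes, 0 fragments and 4 lengths passed, and of the length contrasts with other groups only 28 nt against WT D3 lost its call (adjusted p = 0.0626). The numbers were not taken to pair the samples. Count models were not run, and at 156602 to 275568 reads a sum under 10.9 to 19.2 CPM was not measurable.

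Of 64 named sums, 21 changed sign under at least 1 alternative, and of 24 named fragments 2 did. With library size only, the log2 fold change was 0.006091 for Other Glu-CTC, 0.03888 for tiRNA-5 Gly-GCC and 0.03263 for the 32-nt tRF-5c of Gly-CCC/Gly-GCC (0.03493 with voom weights). With perfect matches only it was 0.4154 for tRF-5a Lys-TTT, -0.0007132 for 32-nt reads and -0.1193 for 33-nt reads (-0.002827 with TMM factors). With the 6 WT libraries and the 4 libraries it was -0.05537 and -0.05723 for tRF-5a Lys-CTT, -0.006782 and -0.008959 for tRF-1 His-GTG, and -0.09564 and -0.09747 for Other mt-Gly-TCC.

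With 1 library left out, the lone library of its group was assumed to vary like the other groups, and the log2 fold changes of sums that changed sign ran over -0.9118 to 0.1268 for tRF-5c Gly-CCC/Gly-GCC, -0.4918 to 0.03363 for Other mt-Val-TAC, -1.054 to 0.9156 for Other Glu-CTC, -0.4911 to 0.03859 for tRF-5c Val-AAC/Val-CAC, -0.3589 to 0.1352 for tRF-1 Met-CAT, -0.02445 to 0.4403 for Other His-GTG, -0.7988 to 0.7281 for tiRNA-5 Gly-GCC, -0.9168 to 0.4786 for tiRNA-5 Gly-CCC/Gly-GCC, -1.303 to 0.5415 for tiRNA-5 Glu-CTC, -1.244 to 0.6181 for tiRNA-5 Lys-CTT, -0.565 to 0.3449 for tRF-5a Lys-TTT, -0.0889 to 0.2246 for tRF-5a Lys-CTT, -0.08539 to 0.4448 for tRF-5c Asp-GTC, -0.3109 to 0.8402 for tiRNA-5 His-GTG, -0.3844 to 0.009074 for tRF-1 Cys-GCA, -0.09437 to 0.3472 for tRF-1 His-GTG, -0.627 to 0.3644 for tRF-1 Ile-AAT, -1.288 to 0.9972 for tRF-1 Ser-AGA, -0.1304 to 1.106 for Other Gly-GCC, -0.03607 to 0.106 for Other mt-Gly-TCC and -0.0769 to 0.5232 for Other mt-Ser-TGA. Those of fragments ran over -1.558 to 1.473 for tRF-5c Gly-CCC/Gly-GCC 32 nt and -0.06863 to 1.17 for tRF-5c Gly-GCC 31 nt C to T. Those of lengths ran over -0.3531 to 0.6713 for 26 nt, -0.4882 to 0.6609 for 32 nt and -0.4292 to 0.5702 for 33 nt.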
